A study of Mus musculus with 32 samples.

Results

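The first week of organoid culture was compared with sorted epidermis. The members were 8 of the 32 libraries of the series, chosen by their labels: 5 libraries of organoids that had not been passaged, taken 7 days after culture began, and 3 libraries of interfollicular epidermis, the skin between hair follicles. All came from mice of strain Bl/6. An epidermal organoid is a ball of keratinocytes grown as a rounded body rather than as a flat sheet. Each organoid library came from another medium: forskolin (F), which raises cyclic AMP; forskolin with the growth factor Fgf10; forskolin with Fgf1; forskolin with an inhibitor of TGF-beta signalling (TgfB inhibitor); and the inhibitor without forskolin. The 5 were read as 1 group, so its spread holds differences between media as well as between libraries. The epidermis was sorted for cells positive for Itga6, an integrin of the basal layer, and for Sca1, the product of Ly6a. The labels name skin as the source of the organoids, and neither the cells that seeded them nor the animals behind each library are described in the sources used here. The p-values below therefore reflect only how much these libraries vary, which may be technical. RNA was read by CEL-seq2, which counts the 3′ ends of polyadenylated transcripts.

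Interfollicular epidermis renews from a basal layer of keratinocytes that make the keratins Krt5 and Krt14 and hold to the basement membrane through hemidesmosomes. Cells that leave this layer switch on Krt1 and Krt10, then build a cornified envelope from loricrin, small proline-rich (Sprr) and late cornified envelope (Lce) proteins. After wounding, keratinocytes switch on another keratin set (Krt6a, Krt6b, Krt16 and Krt17) with growth factors and alarmins, and keratinocytes put into culture are known to do much the same.

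Totals were 1028720 to 2226115 counts in the organoid libraries and 469839 to 739531 in the epidermis libraries. Values below are CPM, counts scaled to a common total, after TMM scaling over the 8 libraries. Where values are given by library, epidermis is in the order 1 to 3 and organoids in the order forskolin, Fgf10, Fgf1, forskolin with inhibitor, inhibitor alone. Fold changes are log2, organoids minus epidermis, with a standard error (SE) from the edgeR fit, and a gene is called at an adjusted p under 0.05. Of 8574 genes tested, 4194 (48.9%) were called, 2133 (24.9%) higher and 2061 (24%) lower in organoids, and the median log2 fold change over all tested genes was 0.02. A call is therefore common here, and the counts of each gene group below are to be read against these shares. Spearman correlations were 0.899 to 0.918 between epidermis libraries, 0.881 to 0.960 between organoid libraries and 0.575 to 0.650 between the groups. No gene list of the files held libraries of both groups, so that any difference in how these files were made and the difference between culture and tissue cannot be told apart. Of the names in the 8 files, 1470 were listed for organoids only and 1908 for epidermis only; they held 0.122 to 0.383% of a library's counts. In bulk RNA, fewer cells of a type and less RNA per cell cannot be told apart.

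Both groups held the RNA of basal keratinocytes. Krt5 was at 9476 ± 1940 CPM (SD, n = 3) in epidermis and 12226 ± 1907 (SD, n = 5) in organoids, with overlapping libraries and no call (log2 fold change 0.37, SE 0.24, adjusted p = 0.228). Its partner Krt14 was at 6218, 7503 and 7493 CPM in epidermis and at 22711, 21312, 21040, 12332 and 12810 in organoids, and rose by 1.35 (SE 0.29, adjusted p = 0.00234). The 3 media without inhibitor stood above those with it. Of the sort genes, which chose the epidermis cells, Itga6 was at 372 ± 73.4 and 368 ± 198 CPM and was not called (-0.02). Ly6a was at 278 ± 63.5 and 645 ± 128 CPM, with no overlap, and was called higher (1.22, SE 0.23, adjusted p = 0.00121); since epidermis was sorted on its product, this is no finding between the groups.

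The wound keratins were low in epidermis and abundant in organoids. Krt6b (GRCm38 chromosome 15, 101676023 to 101680287, minus strand) was at 5.99, 0 and 125.9 CPM in epidermis and at 33235, 20098, 27907, 17723 and 15724 CPM in organoids. Every organoid library stood far above every epidermis library, and in epidermis nearly all of the signal sat in library 3. Its log2 fold change was 9.05 (SE 1.18, adjusted p = 8e-05), 13.15 without epidermis library 3 and 8.44 without epidermis library 2. Its neighbour Krt6a was at 2, 9.2 and 156 CPM in epidermis and at 6096 to 12421 in organoids, with a log2 fold change of 7.38 (SE 1.01, adjusted p = 0.000116), or 10.54 without epidermis library 3. Krt16, the type I partner of these keratins, was at 9.99, 2.63 and 114 CPM in epidermis and 7171 ± 1676 (SD, n = 5) in organoids (log2 fold change 7.43, SE 0.91, adjusted p = 5.38e-05; 10.28 without epidermis library 3). Krt17 was already present in epidermis, at 216, 197 and 400 CPM, and reached 1398, 474, 595, 2255 and 2478 CPM in organoids (2.41, SE 0.56, adjusted p = 0.0036). All 4 tested members of the wound keratin list rose, and the 4 were called without each single library too. Of the last 500 bases of their transcripts, Krt6a and Krt6b share no 40-base stretch with another gene, while Krt14, Krt16 and Krt17 share 14.9, 23.4 and 12.8% of theirs, so reads of these may be split between them.

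**Figure D1:**
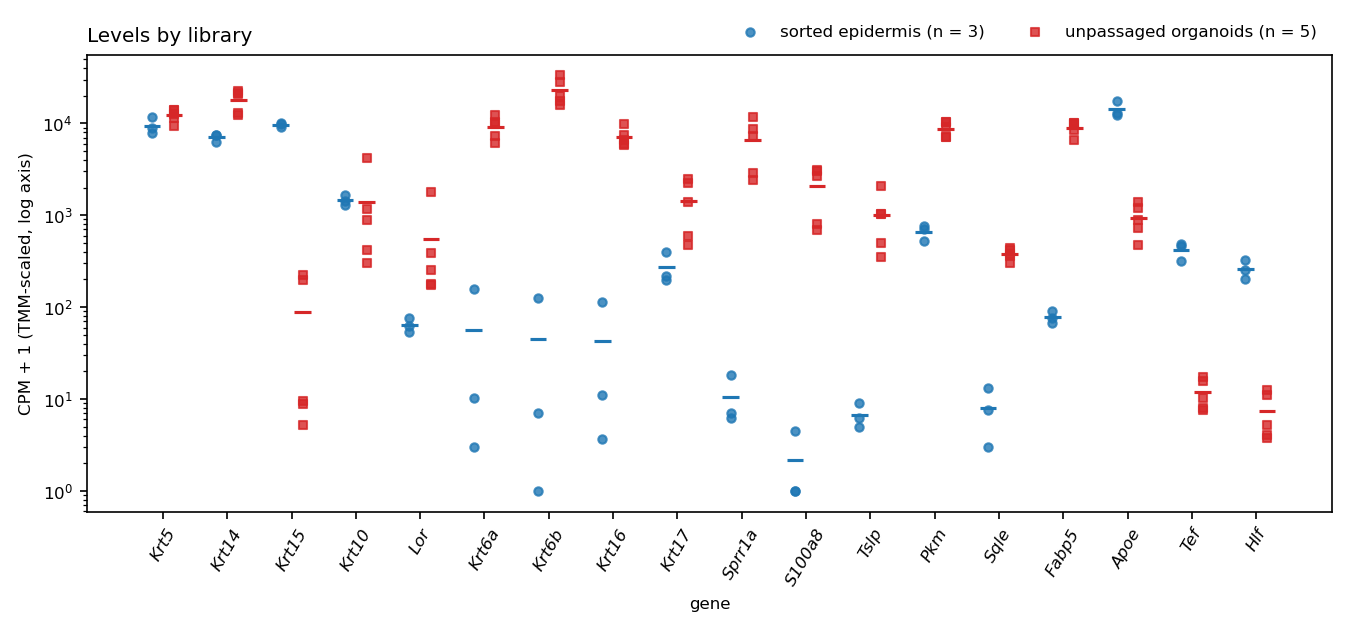
CPM + 1 on a log axis for 18 genes in the 3 epidermis libraries (circles) and the 5 unpassaged organoid libraries (squares), with short lines at the group means. Krt5 and Krt10 overlap between the groups, Krt6a, Krt6b and Krt16 are higher in each organoid library, and Krt15, Apoe, Tef and Hlf stand lower in each organoid library.

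Krt15 went the other way; it is a keratin made in the basal layer and in the follicle bulge. It was at 9892, 10162 and 9052 CPM in epidermis and at 4.15, 7.74, 8.47, 196 and 220 CPM in organoids. The organoid libraries split by the inhibitor: the 3 without it were under 10 CPM and the 2 with it near 200. The log2 fold change was -6.76 (SE 1.09, adjusted p = 0.000359) and -7.42 without the library with inhibitor alone. Krt15 lies on chromosome 11 (100131758 to 100135928, minus strand). In the basal keratin and p63 list, 4 of 12 tested genes were called higher and 6 lower, with a median log2 fold change of -0.12. Ngfr, the low-affinity neurotrophin receptor, fell from 65.9 ± 7.93 to 5.38 ± 2.06 CPM (-3.65, SE 0.29, adjusted p = 3.77e-06), and Bcam, a laminin receptor, from 422 ± 56.3 to 154 ± 44.1 CPM (-1.45, SE 0.24). Sfn, a 14-3-3 protein of stratifying keratinocytes, rose from 423 ± 37.4 to 2451 ± 439 CPM (2.53, SE 0.23), and Cd44, the hyaluronan receptor, from 217 ± 43.3 to 692 ± 143 CPM (1.67, SE 0.24).

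Anchorage genes were called in both directions. Of 17 tested genes of the hemidesmosome and basement membrane list, 6 fell and 3 rose. The number that rose was 0 with limma-voom or without organoid library 1 or 3, 1 without organoid library 2 or any 1 of the epidermis libraries, and 6 without organoid library 4 or 5. With only the inhibitor media 10 of 16 fell and 0 rose. Dst, the plakin that ties keratin filaments to the hemidesmosome, was at 1496, 1286 and 1572 CPM in epidermis and 126.0, 132, 179, 109 and 86.5 in organoids (-3.53, SE 0.23, adjusted p = 1.02e-06). Col17a1, the hemidesmosomal collagen, fell from 3011 ± 865 to 822 ± 394 CPM (-1.88, SE 0.37, adjusted p = 0.00134), with the lowest levels, 413 and 441, in the 2 libraries with inhibitor. Plec (-1.33, SE 0.23) and Cd151 (-1.03, SE 0.23) also fell. Frem2, a basement membrane protein at 20.2 ± 4.62 CPM in epidermis, is not listed in the organoid files, which puts it at least 54.3-fold lower if the absence is read as no count. It entered the test only through the epidermis libraries and could only come out lower. The 3 that rose were the integrin subunits Itga3 (1.10, SE 0.39, adjusted p = 0.0321), Itgb4 (0.99, SE 0.37, adjusted p = 0.0401) and Itgb1 (1.06, SE 0.41, adjusted p = 0.0483). Their organoid libraries overlapped epidermis, the 2 with inhibitor lying lowest, and none of the 3 calls held without organoid library 1 or without library 3: Itga3 then gave adjusted p = 0.0537 and 0.0586, Itgb4 0.0685 and 0.0725, and Itgb1 0.0855 and 0.0775. Leaving out any 1 epidermis library also ended these 3 calls, and leaving out organoid library 2 ended those of Itgb4 (0.0569) and Itgb1 (0.0726).

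Genes of the cornified layer were far above their level in sorted epidermis. The epidermis cells were sorted for Itga6, an integrin of the basal layer. For genes of later layers, here and in the next paragraphs, that sort and culture cannot be told apart. Of 30 tested genes of the cornified envelope and barrier list, 26 rose and 1 fell, against 24.9% and 24% of all tested genes. The list's median log2 fold change was 5.90, or 4.67 with the 6 genes without a count in epidermis set to their lower bounds, against 0.02 over all genes. Summed over the list, epidermis held 691 to 1060 CPM and organoids 11541 to 43704. Sprr1a, a cross-linked envelope precursor, was at 5.99, 5.26 and 17.5 CPM in epidermis and 11854, 2418, 2854, 8735 and 7263 in organoids (9.45, SE 0.81, adjusted p = 5.12e-06; 10.21 without epidermis library 3). Asprv1, a protease that processes filaggrin, rose from 46.3 ± 6.99 to 1355 ± 676 CPM (4.88, SE 0.48, adjusted p = 1.32e-05). Lor, loricrin itself, was at 75.9, 52.6 and 61.2 CPM in epidermis and 255, 175, 176, 387 and 1778 in organoids (3.14, SE 0.81, adjusted p = 0.00682), and at 1.98 without the library with inhibitor alone, in which it was highest. The gene that fell was Alox12e, an epidermal lipoxygenase, at 366, 308 and 367 CPM in epidermis and at 0, 0, 0, 0.474 and 4.86 in organoids (-7.83, SE 0.56, adjusted p = 1.6e-06; -10.25 without the library with inhibitor alone).

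Of the 10 genes with the largest rise among better-expressed genes, 6 lie in the epidermal differentiation complex on chromosome 3. Sprr2f, Lce3e and Sprr2g had no count in epidermis. Here and below, a name that a file does not list is read as no count. Against a floor of 3 counts over the 3 epidermis libraries, which covers counting error only, Sprr2f at 1568 ± 1766 CPM was at least 958-fold higher, Lce3e at 1106 ± 589 at least 676-fold and Sprr2g at 320 ± 245 at least 195-fold. Sprr2g is listed in no epidermis file, Lce3e in 1 and Sprr2f in 2, and Lce3e shares 40.4% of its 3′ end with other annotated genes. Sprr2h had 1 count in epidermis and 18714 in organoids, a ratio per effective total of 4259 (95% exact binomial interval 764 to 168249, counting error only). Sprr2d was at 7.99, 0 and 0 CPM in epidermis and 4316 ± 2906 CPM in organoids (10.85, SE 1.03, adjusted p = 1.04e-05; 15.50 without epidermis library 1 and 10.15 without library 2). The remaining ones were S100a8, described below, Klk13, a kallikrein protease of the cornified layer (no count in epidermis, 173 ± 121 CPM in organoids, at least 106-fold higher), Cxcl3, a chemokine listed in no epidermis file (at least 156-fold), Fhl2, a LIM-domain protein (at least 107-fold), and Mgarp, a mitochondrial protein (at least 94.9-fold). Across the complex from S100a10 to S100a1 (GRCm38 chromosome 3, 90511034 to 93564643), a region examined after its genes were seen among the largest changes, 39 of 48 tested genes rose and 1, S100a13, fell. All 10 tested Sprr genes and 16 of 17 tested Lce genes rose. Of the 48, 18 had no count in epidermis, among them 4 Sprr and 12 Lce genes. Such genes, here and in every gene list, entered the test only through the organoid libraries and could only come out higher. The reverse holds for genes without a count in organoids, such as Frem2 and H2-Aa, which could only come out lower. The rise did not extend over the whole interval: S100a1, S100a4, S100a10 and S100a11 were not called.

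**Figure D2:**
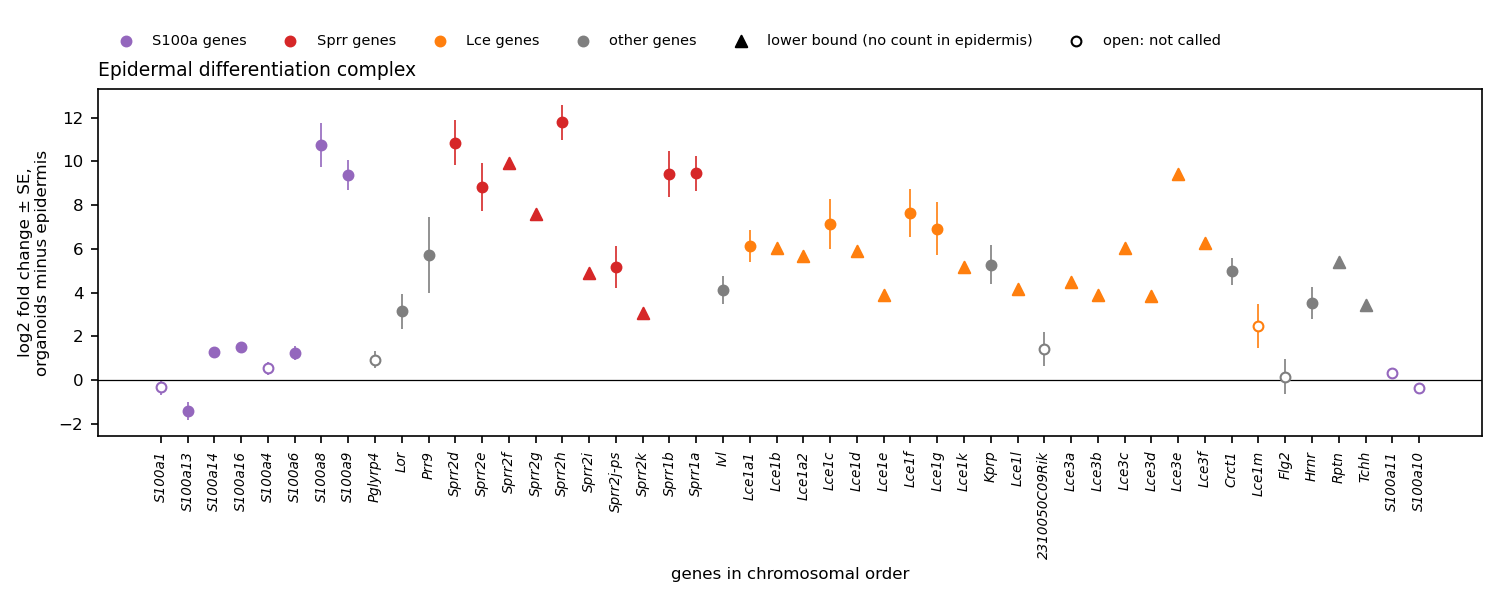
Log2 fold change, organoids minus epidermis, with SE, for the 48 tested genes of the epidermal differentiation complex in chromosomal order; triangles are lower bounds for the 18 genes without a count in epidermis, and open circles are genes not called. All 10 Sprr genes and all 17 Lce genes lie above 0, with Lce1m not called, and S100a13 is the only gene called lower.

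Earlier differentiation was mixed. Krt10, the keratin of spinous cells, was at 1282, 1656 and 1436 CPM in epidermis and 301, 889, 423, 1161 and 4183 in organoids. The lowest and the highest of the 8 values are both organoid libraries, and there was no call (-0.07, SE 0.66, adjusted p = 0.946). Without the library with inhibitor alone it was called lower, at -1.08 (adjusted p = 0.0326). Of 15 tested genes of the spinous list, 9 rose and 1 fell; without the library with inhibitor alone 8 rose and 4 fell. Dmkn, dermokine, rose from 682 ± 167 to 3133 ± 541 CPM (2.20, SE 0.25, adjusted p = 3.6e-05), and Krtdap from 621 ± 123 to 3133 ± 900 CPM (2.34, SE 0.29). Dsc1, a desmosomal cadherin, rose from 16.5 ± 5.39 to 182 ± 64.5 CPM (3.49, SE 0.39). Dsg1a, another desmosomal cadherin, fell from 390 ± 77.1 to 166 ± 21.7 CPM (-1.23, SE 0.19, adjusted p = 0.000291).

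Most alarmins and chemokines rose. Of 17 tested genes of that list, 13 rose and 1 fell. S100a8 and S100a9 form calprotectin, which marks stressed epidermis. S100a8 was at 0, 0 and 3.5 CPM in epidermis and 3044, 2655, 3117, 682 and 811 in organoids, a ratio of 1599 on 2 epidermis counts (interval 442 to 13202). S100a9 rose from 3 ± 3.6 to 1924 ± 746 CPM (9.39, SE 0.69, adjusted p = 1.88e-06; 11.08 without epidermis library 3 and 8.69 without library 2). Both were higher in each library without the inhibitor than in each with it. Tslp, a keratinocyte cytokine that acts on dendritic cells, was at 7.99, 3.94 and 5.25 CPM in epidermis and 494, 1042, 1019, 351 and 2094 in organoids (7.48, SE 0.76, adjusted p = 1.41e-05). Cxcl1 rose from 1.46 ± 1.34 to 149 ± 66.5 CPM, a ratio of 102 on 3 epidermis counts (interval 34.7 to 494), and Slpi, a protease inhibitor, from 1 count to 281 ± 169 CPM (ratio 534, interval 95.7 to 21082). Il1rn, the natural antagonist of interleukin 1, was the one that fell, from 84 ± 15.1 to 28.6 ± 15.8 CPM (-1.49, SE 0.38, adjusted p = 0.00645).

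Ligands of the EGF receptor family, which drive keratinocyte growth and migration, rose in 6 of 8 tested genes of their list. Neither receptor tested was called. Hbegf rose from 3.23 ± 1.28 to 103 ± 45.9 CPM (4.93, SE 0.55, adjusted p = 2.86e-05) and Epgn from 61.9 ± 24 to 567 ± 385 CPM (3.20, SE 0.53, adjusted p = 0.000438). Tgfa went from 1 epidermis count to 68.9 ± 27.5 CPM (ratio 118, interval 21.1 to 4675) and Areg from 2 counts to 50.02 ± 28.00 CPM (ratio 39.1, interval 10.8 to 325). Nrg1, listed in no epidermis file, was at 11.5 ± 7.31 CPM, at least 7.03-fold higher. Of 11 tested genes of wound proteases, integrins and matrix, 8 rose and 1 fell. The count is unstable: 5 of 15 tested rose without epidermis library 1 or without library 2, 2 of 11 with limma-voom and 2 of 6 with only the inhibitor media. Mmp3, stromelysin, was at 2, 6.57 and 5.25 CPM in epidermis and 323, 270, 442, 28.9 and 36.2 in organoids (5.46, SE 1.15, adjusted p = 0.00206). Mmp13 (34.7 ± 30.7 CPM, at least 21.2-fold higher) and Mmp1b (31.0 ± 28.2 CPM, at least 18.9-fold) are listed in no epidermis file. Tnc, tenascin C, went from 1.98 ± 1.97 to 30.7 ± 21.7 CPM (3.71, SE 0.93, adjusted p = 0.00612; 4.87 without epidermis library 2). Each of these was lower in both libraries with inhibitor than in the Fgf1 library. Fst, follistatin, which binds activin, went from 26.2 ± 14.7 to 5.35 ± 7.15 CPM (-2.49, SE 0.89, adjusted p = 0.0349), a call lost without organoid library 1 (-2.27, adjusted p = 0.0532) or 4 (-2.19, 0.0543) or epidermis library 2 (-2.33, 0.12) or 3 (-2.10, 0.149), and at -3.82 without organoid library 2.

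Genes of the actin cytoskeleton rose in 14 of 20 tested cases and fell in none. Cfl1, cofilin, was at 190, 145 and 245 CPM in epidermis and 1717 to 2233 in organoids (3.42, SE 0.25, adjusted p = 1.95e-06), and Pfn1, profilin, went from 147 ± 57.1 to 1873 ± 333 CPM (3.68, SE 0.33). The actin-binding genes Actn1 (2.85, SE 0.32), Tpm1 (2.30, SE 0.22) and Tpm4 (2.04, SE 0.24) rose as well.

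Most mitosis genes rose. Of 25 tested mitosis genes 19 rose and none fell, with a median log2 fold change of 2.04. Summed over the list, epidermis held 447, 643 and 771 CPM. Organoids held 1419, 1762 and 1498 without the inhibitor and 2911 and 2763 with it. Ube2c, which acts with the anaphase-promoting complex, rose from 13.2 ± 6.71 to 115 ± 25.6 CPM (3.08, SE 0.34, adjusted p = 2.44e-05), Cdk1, the mitotic kinase, from 81.1 ± 16.7 to 335 ± 77.8 CPM (2.04, SE 0.26) and Birc5, survivin, from 32.1 ± 7.68 to 155 ± 59.9 CPM (2.26, SE 0.36). Cenpa, the centromeric histone, rose by 2.68 (SE 0.34), or 3.31 without epidermis library 3. Mki67, the usual marker of cycling cells, was at 46.2 ± 15.7 CPM in epidermis and 56.2 ± 26.0 in organoids and was not called (0.30, SE 0.38, adjusted p = 0.545). By library, Mki67 was at 30.0, 47.3 and 61.2 CPM in epidermis. In organoids it was at 31.2, 48.8 and 34.9 without the inhibitor and at 91.1 and 75.1 with it. Of 25 tested genes of DNA replication, 5 rose, 4 fell and 16 were not called, shares below those over all genes; 2 rose without epidermis library 1, and 3 without library 3 or without organoid library 4. The 2 lists were not tested against each other. Gins1, of the replicative helicase, fell from 130 ± 40.9 to 32.3 ± 3.36 CPM (-2.004, SE 0.22, adjusted p = 2.75e-05), as did the helicase subunits Mcm7 (-1.79, SE 0.22), of which 45.6% of the 3′ end is shared with another annotated gene, and Mcm2 (-1.38, SE 0.23). Rrm2, of ribonucleotide reductase, rose from 44.1 ± 25.7 to 245 ± 91.4 CPM (2.45, SE 0.44, adjusted p = 0.000742). The inhibitors of the cycle moved both ways: Cdkn2b, p15, rose from 6.00 ± 3.92 to 41.5 ± 10.9 CPM (2.66, SE 0.42; 3.45 without epidermis library 2) and Cdkn1b, p27, fell from 178 ± 15.9 to 69.9 ± 27.4 CPM (-1.36, SE 0.29). In the list of p53 targets and inhibitors of the cycle, 7 of 14 tested genes rose and 3 fell.

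Metabolic genes made up some of the most uniform groups. Of 25 tested genes of glycolysis and hypoxia, 23 rose and none fell, with a median of 3.26; their summed level was 2500 to 3076 CPM in epidermis and 19333 to 34908 in organoids. Pkm, pyruvate kinase, was at 763, 519 and 708 CPM in epidermis and 10232, 9105, 10374, 7143 and 7051 in organoids (3.73, SE 0.29, adjusted p = 2.37e-06). Pgk1, phosphoglycerate kinase, rose by 3.76 (SE 0.29) and Pgam1, phosphoglycerate mutase, by 3.16 (SE 0.28). Pkm, Pgk1 and Pgam1 share 39.6, 32.6 and 51.8% of their 3′ ends with other annotated genes, so their levels are uncertain. Hk2, the inducible hexokinase, went from 5.85 ± 5.69 to 186 ± 18.1 CPM (5.05, SE 0.41, adjusted p = 3.93e-06; 6.24 without epidermis library 3) and Slc16a3, the lactate exporter, from 3 ± 3.6 to 137 ± 21.9 CPM (5.58, SE 0.49; 7.28 without epidermis library 3 and 4.88 without library 2).

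All 24 genes of the cholesterol list were tested and all 24 rose, with a median log2 fold change of 3.24 against 0.02 for all genes and 24.9% of all genes called higher. The list holds the enzymes from acetyl-CoA condensation to cholesterol, with the LDL receptor and the factors that sense sterols. Sqle, squalene epoxidase, was at 2, 6.57 and 12.2 CPM in epidermis and 413, 301, 356, 439 and 378 in organoids (5.72, SE 0.37, adjusted p = 9.62e-07; 6.33 without epidermis library 3). The 5 media lay within a narrow band far above epidermis. Mvd, mevalonate decarboxylase, had no count in epidermis and 94.9, 73.5, 102, 96.8 and 93.6 CPM in organoids, at least 56.3-fold higher. Cyp51, lanosterol demethylase, rose from 25.1 ± 3.61 to 280 ± 43.2 CPM (3.49, SE 0.25, adjusted p = 1.48e-06) and Msmo1, a later demethylase of the pathway, from 46.8 ± 14.8 to 588 ± 126.2 CPM (3.65, SE 0.30). Fdps, farnesyl diphosphate synthase, rose by 4.14 (SE 0.26), though 67.1% of its 3′ end is shared with other annotated genes. Hmgcs1, the synthase at the head of the pathway, was already well expressed and rose less. It was at 232, 280 and 280 CPM in epidermis and 588, 368, 438, 584 and 614 in organoids (0.97, SE 0.22, adjusted p = 0.00344). The count was 24 or 23 without each single library and 22 after thinning all libraries to equal depth.

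Because the list moved together, the promoters of its members were searched in RefSeq's GRCm38.p6 table, from 250 bases before to 50 after the start. Of its 24 genes, 16 matched. The CCAAT box (CCAAT on either strand), bound by NF-Y, was in 16 of the 16 (100%), against 41.1% of all 27025 genes with a promoter in the table, and it was also in 11 of 13 matched circadian genes (84.6%), 11 of 20 NRF2 targets (55%) and 11 of 24 glycolysis genes (45.8%). A strict sterol response element (TCACNCCAC on either strand), the site of SREBP, was in 1 of the 16 (6.25%), Hmgcs1, against 1.44% of all genes. Here and for the clock genes below, a gene counted if any of its promoters in the table held the motif. The background was all genes in the table, expressed or not, and the tested genes alone were not used. A match is a description of the letters, not a bound site. The 3 promoters below are shown because Hmgcs1 carries both motifs, and Mvd and Msmo1 are among the 5 members with the smallest p; Hmgcs1 was picked after its motif was seen. Capitals mark CCAAT or its reverse complement and, in Hmgcs1, the sterol element. The positions are chr13:119690101-119690400 (plus strand), chr8:122443373-122443672 (minus strand) and chr8:64733529-64733828 (minus strand).
Hmgcs1: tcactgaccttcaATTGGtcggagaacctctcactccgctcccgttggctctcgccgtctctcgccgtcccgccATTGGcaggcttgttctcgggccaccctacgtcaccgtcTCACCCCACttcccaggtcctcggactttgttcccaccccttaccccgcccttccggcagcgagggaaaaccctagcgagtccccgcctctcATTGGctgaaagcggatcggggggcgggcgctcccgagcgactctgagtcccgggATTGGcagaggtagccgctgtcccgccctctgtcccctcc
Mvd: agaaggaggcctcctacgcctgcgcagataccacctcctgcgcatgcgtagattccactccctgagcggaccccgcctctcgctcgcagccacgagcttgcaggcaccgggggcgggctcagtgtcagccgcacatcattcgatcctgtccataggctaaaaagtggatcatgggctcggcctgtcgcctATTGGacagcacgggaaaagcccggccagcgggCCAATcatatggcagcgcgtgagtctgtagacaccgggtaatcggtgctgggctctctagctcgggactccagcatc
Msmo1: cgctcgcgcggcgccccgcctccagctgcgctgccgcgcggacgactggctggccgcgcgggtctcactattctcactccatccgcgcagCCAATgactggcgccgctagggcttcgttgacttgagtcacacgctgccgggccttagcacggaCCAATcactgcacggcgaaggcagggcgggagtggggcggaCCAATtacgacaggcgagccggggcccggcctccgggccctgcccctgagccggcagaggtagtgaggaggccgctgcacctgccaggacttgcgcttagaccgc

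Lipid handling did not follow cholesterol synthesis. Of 15 tested genes for lipid transport and targets of the sterol receptor LXR, 5 rose and 5 fell, or 3 fell without organoid library 4. Apoe, the apolipoprotein that carries cholesterol out of cells (chromosome 7, 19696109 to 19699188, minus strand), was the most abundant of them in epidermis, at 17480, 12377 and 12824 CPM, and stood at 474, 1395, 898, 725 and 1202 in organoids (-3.92, SE 0.33, adjusted p = 4.92e-06). Mylip, which marks the LDL receptor for breakdown, fell from 125.7 ± 15.001 to 13.9 ± 6.75 CPM (-3.23, SE 0.38). Fabp5, the epidermal fatty acid-binding protein, rose from 65.9, 74.9 and 89.2 CPM to 9737, 10064, 10139, 8419 and 6541 (6.87, SE 0.33, adjusted p = 2.2e-07). Scd2, a fatty acid desaturase, rose from 13.1 ± 5.61 to 1196 ± 393 CPM (6.501, SE 0.43), and Fabp4, listed in no epidermis file, was at 23.4 ± 14.4 CPM, at least 14.3-fold higher.

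Stress pathways rose in part. Of 21 tested NRF2 targets, 14 rose and 2 fell: Gsta4, a glutathione transferase for lipid aldehydes, was at 2, 7.89 and 73.4 CPM in epidermis and 1425 to 5580 in organoids (6.82, SE 0.87, adjusted p = 7.2e-05; 9.16 without epidermis library 3), and Nfe2l2, which encodes NRF2, rose by 1.47 (SE 0.19). Gstm1 (-2.22, SE 0.32) and the ferritin Fth1 (-1.20, SE 0.19) fell. Of 19 tested genes of ATF4 and the unfolded protein response, 15 rose and 2 fell. The chaperone Hspa5 rose from 116 ± 18.9 to 673 ± 233 CPM (2.54, SE 0.31), Xbp1 by 2.28 (SE 0.26) and Asns, asparagine synthetase, by 2.26 (SE 0.30), whereas Atf3 fell from 24.7 ± 10.3 to 1.16 ± 1.16 CPM (-4.11, SE 0.58; -4.93 without the library with inhibitor alone) and Herpud1 fell by 1.24 (SE 0.27). Retinoid genes rose in 5 of 10 tested cases and fell in 2. Crabp2, which hands retinoic acid to its receptor, rose from 26.3 ± 12.0 to 828 ± 261 CPM (5.00, SE 0.41) and Cyp26b1, which degrades retinoic acid, from 3 counts to 36.7, 20.1, 24.4, 176 and 109 CPM (ratio 54.7, interval 18.6 to 266), while the receptor Rarg fell by 1.11 (SE 0.18).

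**Figure D3:**
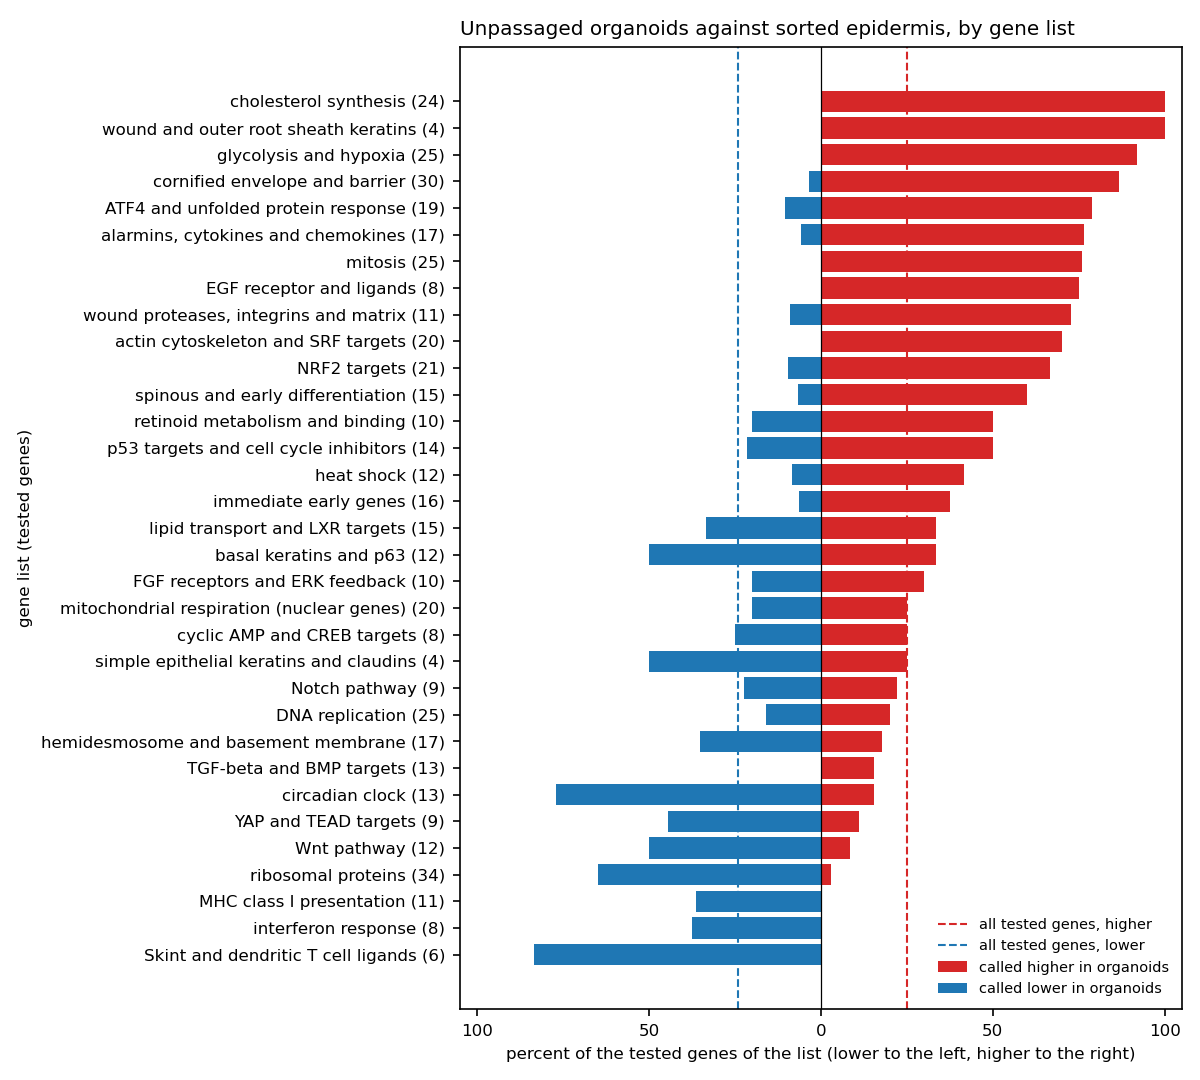
Percent of the tested genes of each list, markers of other cell types left out, called higher (right) or lower (left) in unpassaged organoids than in sorted epidermis; the number of tested genes stands in brackets, and the dashed lines mark 24.9% and 24%, the shares over all tested genes. Cholesterol synthesis, wound keratins and glycolysis reach furthest to the right, and Skint, circadian and ribosomal protein genes furthest to the left.

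The circadian clock genes fell as a group. The clock is a loop in which Arntl and Clock drive Per, Cry and Nr1d genes, whose products act back on it, and its output factors include Tef and Hlf. Of 13 tested genes, 10 fell and 2 rose, with a median of -2.78. Tef was at 467, 481 and 316 CPM in epidermis and 6.92, 16.3, 14.8, 6.64 and 9.27 in organoids (-5.33, SE 0.30, adjusted p = 5.31e-07). Hlf fell from 259 ± 60.4 to 6.37 ± 4.17 CPM (-5.46, SE 0.37), Per3 from 138 ± 28.7 to 5.10 ± 4.01 CPM (-4.91, SE 0.40), Per2 from 69.8 ± 7.74 to 1.10 ± 0.793 CPM (-5.99, SE 0.40) and the repressor Nr1d2 from 285 ± 20.98 to 31.5 ± 8.002 CPM (-3.18, SE 0.22). The 2 that rose were Arntl, from 8.98 ± 6.37 to 33.4 ± 9.96 CPM (1.80, SE 0.46, adjusted p = 0.00635), and Bhlhe40, from 61.3 ± 24.6 to 219 ± 120 CPM (1.85, SE 0.47, adjusted p = 0.00609). The time of day of each harvest is not given in the sources used here, and its part in these values was not tested. After thinning to equal depth 7 fell and 1 rose of 11 tested.

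The E-box CACGTG, the site of Arntl and Clock (a palindrome, so 1 match covers both strands), was in 5 of 13 matched clock genes (38.5%), against 8.09% of all genes. The D-box TTANNTAA, the site of Tef and Hlf, was in 2 of 13 (15.4%), against 6.93%. The promoters of Tef, the clock gene with the smallest p, and of Ciart, a repressor of the loop picked after its 3 matches were seen, are shown with the E-box in capitals. Ciart itself fell from 67.1 ± 7.44 to 15.99 ± 2.95 CPM (-2.06, SE 0.24). Another Tef promoter, at chr15:81802423-81802722 (plus strand), also held 1 E-box and is not shown. The positions of those shown are chr15:81811164-81811463 (plus strand) and chr3:95882179-95882478 (minus strand).
Tef: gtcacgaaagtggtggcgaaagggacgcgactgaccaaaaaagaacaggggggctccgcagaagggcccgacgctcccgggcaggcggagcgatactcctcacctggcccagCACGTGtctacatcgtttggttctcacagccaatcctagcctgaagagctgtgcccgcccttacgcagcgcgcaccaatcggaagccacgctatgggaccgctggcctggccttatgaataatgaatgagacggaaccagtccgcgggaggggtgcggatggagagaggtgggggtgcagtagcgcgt
Ciart: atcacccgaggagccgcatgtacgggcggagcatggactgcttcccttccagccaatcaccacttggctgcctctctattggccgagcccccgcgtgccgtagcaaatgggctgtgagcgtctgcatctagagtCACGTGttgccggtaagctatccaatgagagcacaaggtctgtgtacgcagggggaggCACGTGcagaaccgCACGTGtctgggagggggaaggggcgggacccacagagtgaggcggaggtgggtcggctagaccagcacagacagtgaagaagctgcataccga

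**Figure D4:**
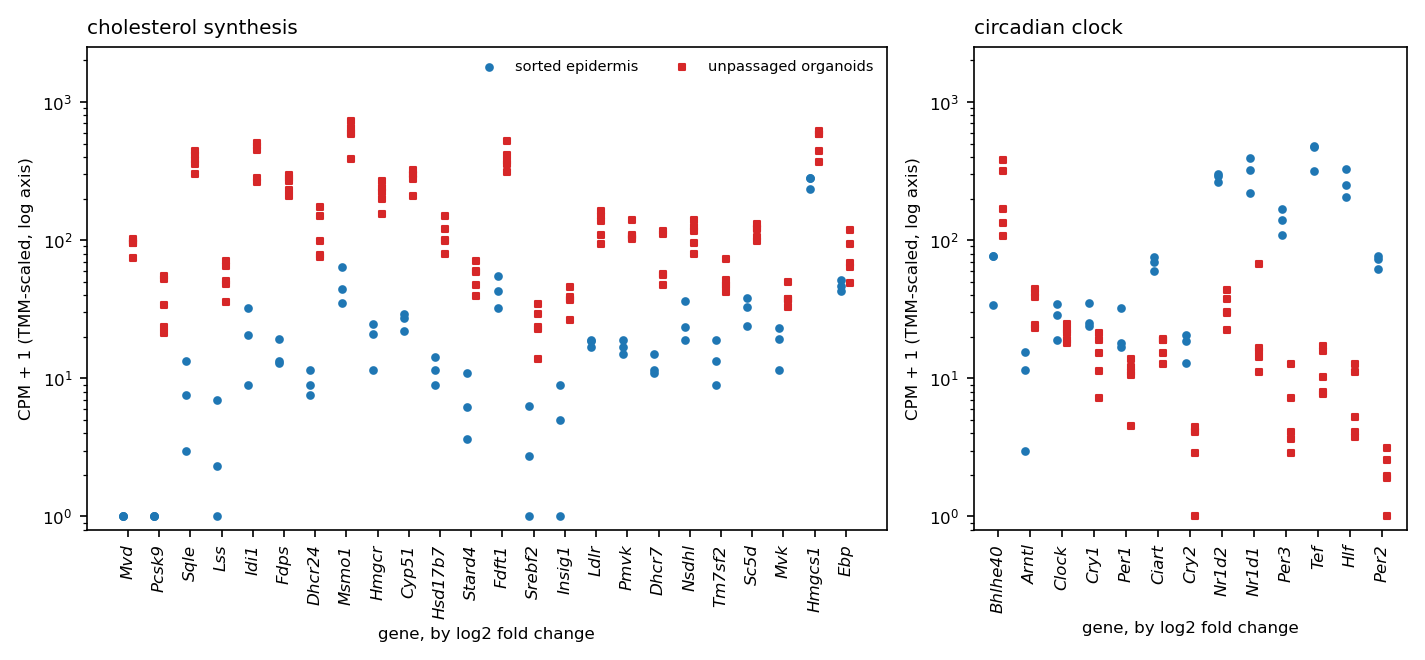
CPM + 1 on a log axis for the 24 tested genes of cholesterol synthesis (left) and the 13 tested clock genes (right), ordered by log2 fold change, in 3 epidermis (circles) and 5 unpassaged organoid (squares) libraries. Organoids lie above epidermis for 24 of 24 cholesterol genes by mean, and below it for most clock genes.

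Among genes through which keratinocytes meet immune cells, the Skint list fell and the others were mostly not called. Of 6 tested Skint and ligand genes 5 fell and none rose; the Skint family is expressed by keratinocytes and read by dendritic epidermal T cells. Skint9 was at 236, 230 and 152 CPM in epidermis and 0.692, 0.774, 1.06, 0.949 and 39.3 in organoids (-4.34, SE 0.85, adjusted p = 0.00133; -7.72 without the library with inhibitor alone, where it was highest). Skint10 (-4.48, SE 0.57) and Skint6 (-3.83, SE 0.78) fell, to -5.41 and -6.40 without that library. In class I antigen presentation 4 of 11 tested genes fell, 7 were not called and none rose: Nlrc5, the activator of class I genes, from 68.9 ± 21.6 to 3.56 ± 1.61 CPM (-4.17, SE 0.34, adjusted p = 4.15e-06), Tap1, the peptide transporter, by 2.07 (SE 0.22) and B2m, the class I light chain, from 1615 ± 84.7 to 972 ± 131 CPM (-0.73, SE 0.19, adjusted p = 0.00677). Of 8 tested interferon response genes 3 fell and 5 were not called, with a median of -0.13: Irf9 (-2.67, SE 0.28), Ifi27 (-1.93, SE 0.20) and Gbp2 (-2.70, SE 0.55).

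Markers of other cell types differed between the groups too. The 14 Langerhans cell names, of which 7 had no count in organoids (several are not listed in those files, Cd207 and Ptprc among them), summed to 385 to 691 CPM in epidermis and 13.8 to 84.5 in organoids. Of 5 tested, 4 fell: H2-Aa, at 214, 192 and 73.4 CPM in epidermis and not listed in the organoid files (at least 429-fold lower if read as no count), H2-Eb1, from 236 ± 76.5 to 1.11 ± 1.32 CPM (-7.60, SE 0.48, adjusted p = 9.29e-07), Cd74, from 43.7 ± 10.7 CPM to 2 counts in all (ratio 171 in favour of epidermis, interval 45.9 to 1440) and Fcer1g, from 10.6 ± 1.39 CPM to 1 count (ratio 83.5, interval 13.3 to 3468). H2-Aa entered the test only through the epidermis libraries and could only come out lower. H2-Ab1 was not called and stood at 82.4, 58.8 and 64.6 CPM in the media without inhibitor, near the 59.5 to 71.9 of epidermis, and at 13.3 and 11.9 with it. In the comparison of early with unpassaged organoids below, H2-Eb1 was called higher in early organoids (2.97, SE 0.79, adjusted p = 0.023). There H2-Ab1 was called lower (-3.88, adjusted p = 0.00757). Names of T cell markers summed to 77.9 to 129 CPM in epidermis and 2.12 to 10.6 in organoids; Thy1, the one tested, fell (-4.54, SE 0.59). The part of these cells in the other falls, antigen presentation and interferon genes included, was not tested. Melanocyte markers summed to 13.1 to 26.2 and 0 to 3.46 CPM. Fibroblast names summed to 71.9 to 136 CPM in epidermis and 17.1 to 466 in organoids, with their collagen genes near 0: Col1a1 had no count in epidermis and 2 in organoids, Col1a2 had 2 and 5, and Col3a1 had 0 and 18, at 6.19 and 5.30 CPM in the Fgf10 and Fgf1 libraries. The fibroblast sum was higher in the media without inhibitor (265 to 466 CPM) than in those with it (17.1 and 30.5). Of its 12 names only 1 was tested, and it was not called. That gene alone held 65.9 to 122 CPM in epidermis and 16.1 to 453 in organoids, so the sum is mainly its level.

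Follicle markers were called in both directions. Of 7 tested bulge and outer root sheath markers, 4 fell: Aldh3a1, from 517 ± 114 to 22.5 ± 30.5 CPM (-4.42, SE 0.76; -5.77 without the library with inhibitor alone), Nfatc1 (-2.34, SE 0.56), Postn, and Ctgf, at 12.0, 10.5 and 26.2 CPM in epidermis and counted only in the Fgf10 library of the organoids (-4.72, SE 0.89; -7.29 without that library). Cd34, a bulge marker, went the other way: 5.99, 1.31 and 8.74 CPM in epidermis and 33.2, 29.4, 73.1, 16.1 and 31.8 in organoids (2.81, SE 0.65, adjusted p = 0.00356; 3.44 without epidermis library 3). Lgr5, the other stem cell marker of the bulge, had 1 count in each group and was not tested. Of 9 upper follicle markers 4 rose and 4 fell, and 2 rose and 3 fell without epidermis library 1 or without library 2. Their summed level was 603 to 1324 CPM in epidermis and 771 to 1800 in organoids, highest in the 2 libraries with inhibitor. Among those that rose were Klk13, given above, and Cst6, a protease inhibitor of the cornified layer (105.1 ± 95.2 to 542 ± 397 CPM; 2.38, SE 0.69, adjusted p = 0.0136), and Plet1 (43.3 ± 12.6 to 90.9 ± 37.5 CPM; 1.09, SE 0.37, adjusted p = 0.027), the last 2 named after their values were seen. Krt79 (-3.48, SE 0.50), Gata6 (-4.30, SE 0.68; -3.61 without epidermis library 3) and Defb6 (-2.64, SE 0.65) fell, each with its highest level in epidermis library 3, the library that also held most of the wound keratin counts of the group. Krt32, a hair keratin, was at 106, 146 and 152 CPM in epidermis and at most 2.12 in organoids (-7.12, SE 0.45, adjusted p = 9.29e-07; -7.77 without organoid library 4).

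The remaining genes with the largest falls were Cdh4, a cadherin (163 ± 42.7 CPM against 2 counts in organoids, ratio 661, interval 181 to 5485), Ackr4, a scavenging chemokine receptor (177 ± 22.9 CPM against 3 counts, ratio 483, interval 164 to 2355), Bbox1, an enzyme of carnitine synthesis (851, 939 and 726 CPM against 0, 1.55, 0, 2.85 and 19.4; -7.16, SE 0.73, or -9.17 without the library with inhibitor alone), Sult5a1, a sulfotransferase (-6.67, SE 0.33), and Pkib, an inhibitor of protein kinase A (-6.56, SE 0.41, or -7.35 without the library with inhibitor alone). Gata3, a transcription factor of epidermis and follicle, was at 1252, 1338 and 1145 CPM in epidermis and 190 to 364 in organoids (-2.33, SE 0.22, adjusted p = 1.04e-05). Notch1 (-1.36, SE 0.20) and Jag2 (-1.72, SE 0.37) fell while Notch3 (1.41, SE 0.23) and the target Nrarp (1.62, SE 0.22) rose, so that the Notch list counted 2 up and 2 down of 9 tested. In the FGF list, 2 fell, Fgfr2, the receptor of keratinocyte growth factors, from 235 ± 33.8 to 36.6 ± 12.9 CPM (-2.70, SE 0.27, adjusted p = 1.32e-05) and its feedback inhibitor Spry1 by 1.46 (SE 0.33), and 3 of 10 rose, Dusp6 (3.06, SE 0.66) and Phlda1 (4.59, SE 0.50; 5.23 without epidermis library 3) among them. The counts of the Notch and FGF lists lie near the shares over all tested genes, 24.9% higher and 24% lower. They show no more than these shares. In the Wnt list 6 of 12 tested genes fell (2 without epidermis library 2) and 1 rose. Wnt3, at 120, 90.7 and 114 CPM in epidermis, was at 0.692, 0, 0, 7.11 and 28.7 in organoids (-3.63, SE 0.79; -5.33 without the library with inhibitor alone), and Znrf3, a Wnt feedback gene, fell by 1.84 (SE 0.32). Dkk3, a secreted relative of Wnt inhibitors, was the one that rose (3.42, SE 1.02, adjusted p = 0.0155), a call lost without epidermis library 1 (adjusted p = 0.0617) or 3 (0.064), with a log2 fold change of 5.52 without epidermis library 2.

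Ribosomal protein genes held a large share of the counts and were lower in organoids. Of 34 tested, 22 fell and 1 rose, with a median of -0.77; 14 fell without epidermis library 2. Rplp1 was at 8683, 10024 and 8983 CPM in epidermis and 1655, 2715, 2482, 2085 and 2052 in organoids (-2.07, SE 0.22, adjusted p = 1.93e-05), and Rpl3 fell from 5382 ± 271 to 1458 ± 410 CPM (-1.88, SE 0.24). Rps2, Rps15 and Rps14 fell by 1.61, 1.56 and 1.67. Between 34.1 and 81.8% of the 3′ ends of these 5 genes is shared with other annotated genes, so these values are uncertain. Rpl4 held the most counts of any gene in epidermis libraries 2 and 3 (1.94 and 2.55%) and in no unpassaged library. It did so too in late organoid libraries 1, 2 and 5 (2.61, 2.91 and 1.70%), while late libraries 3, 4 and 6 had a keratin gene on top. Whether the fall follows the set of files was not tested.

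Among the 5 media, the 10 called genes with the widest range included several that followed the inhibitor. Hmga2, a chromatin protein of growing keratinocytes, was at 524, 297 and 413 CPM without the inhibitor and 16.6 and 18.1 with it, against 2 counts in epidermis. Pthlh, a secreted hormone-like protein, was at 353, 150 and 280 CPM without and 9.49 and 4.42 with it, and Prl8a9, of the prolactin family, at 233, 32.5 and 112 without and 0.474 and 1.32 with it. Pthlh and Prl8a9 with inhibitor thus lay within the range of epidermis or near it. Ccl20, a chemokine, was at 4.15, 17.02 and 8.47 CPM without and 81.6 and 270 with the inhibitor. Clca3a2 was at 2.08, 0 and 0 CPM without and 8.54 and 49.4 with it, against 649 ± 126.2 in epidermis (-5.55, SE 0.87; -7.54 without the library with inhibitor alone). The difference between media with and without the inhibitor was not tested. Sostdc1 and Postn did not follow it: Sostdc1 was highest with Fgf10, at 158 CPM, and lowest with forskolin and inhibitor, at 1.42, against 261 ± 88.0 in epidermis, and Postn was highest with inhibitor alone, at 45.5, and at 0 with forskolin. The calls of Prl8a9 (adjusted p = 0.0387), Pthlh (0.0191), Sostdc1 (0.0316), Ccl20 (0.0305) and Postn (0.0249) against epidermis were each lost when any 1 of the 3 epidermis libraries was left out, at adjusted p 0.111 to 0.127, 0.0588 to 0.0806, 0.0611 to 0.112, 0.0784 to 0.102 and 0.0576 to 0.0789; Sostdc1 also lost its call without organoid library 3 (adjusted p = 0.051).

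**Figure D5:**
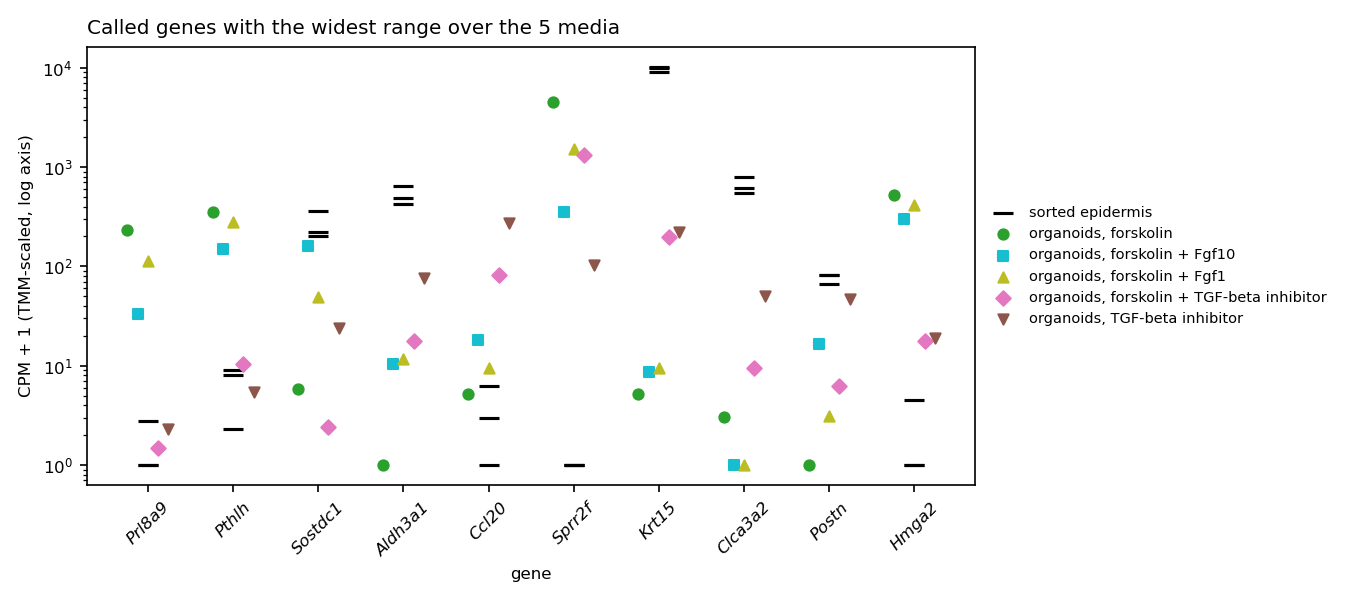
CPM + 1 on a log axis for the 10 called genes with the widest range over the 5 media; bars are the 3 epidermis libraries and symbols the 5 organoid libraries. Prl8a9, Pthlh and Hmga2 are highest in the 3 media without the inhibitor, and Krt15 and Ccl20 in the 2 with it.

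The same genes were read in later organoids, with levels scaled over all 32 libraries. Krt6b was at 5156 to 43749 CPM in the 12 libraries of early passage, 5.96 to 9214 in the 6 of late passage, and at most 1.53 in the 6 of sorted hair follicle. Krt15 stayed at 11.7 to 407 CPM in early and 4.06 to 632 in late organoids, against 7532 to 8277 in epidermis, and was at 21.5 to 181 in anagen follicles and 507 to 1213 in mixed follicles. Apoe was at 422 to 1257 CPM in unpassaged, 24.2 to 1120 in early and 3.08 to 12.7 in late organoids, 531 to 640 in anagen and 1497 to 3248 in mixed follicles. Tef was at 1.13 to 19.9 CPM in early and 25.4 to 85.5 in late organoids, against 263 to 392 in epidermis. Early organoids of 4 media were compared with the 4 unpassaged libraries of the same media, with medium as a term; 1051 of 8890 tested genes were called (11.8%), 506 (5.69%) higher and 545 (6.13%) lower in early organoids. This comparison uses the unpassaged libraries again, so its values stand beside those above and are no second test of them. The unpassaged libraries share 1 gene list and most early libraries have another, so passage and file set are largely confounded. In medium-matched libraries of 1 gene list, 433 of 8321 tested genes were called. That fit covers only forskolin with Fgf10 and forskolin with Fgf1, with 1 early and 1 unpassaged library of each. It is therefore a weak check and leaves out the inhibitor media. Krt6b (-0.05, adjusted p = 0.941) and Krt15 (1.01, adjusted p = 0.249) were not called. Mmp3 was lower in early passage (-3.78, adjusted p = 0.000569), as did Mmp13 (-2.31, adjusted p = 0.00116), Tnc (-2.35, adjusted p = 0.00159), Tgfa (-1.87, adjusted p = 0.00102), Scd2 (-1.53, adjusted p = 0.000582) and Cd34 (-3.03, adjusted p = 0.00116), all of which had been higher in the first week than in epidermis. B2m, lower in the first week, was lower again (-2.06, adjusted p = 9.33e-05). Other named genes were called higher in early organoids. Among them, Lor (3.11, adjusted p = 0.0183) and Lce3e (1.68, adjusted p = 0.0451) had also been higher in the first week than in epidermis. Hlf (1.495, adjusted p = 0.0225), Krt32 (2.64, adjusted p = 0.028) and Il1rn (1.11, adjusted p = 0.045) had been lower. Apoe was called lower (-3.28, adjusted p = 0.00362), but not without the unpassaged Fgf10 library (-2.04, adjusted p = 0.129). Leaving out that library left 184 calls in this comparison, and leaving out the unpassaged library with inhibitor alone 396.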

How the data were processed

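RNA from 8 mouse libraries was read by CEL-seq2, per the labels' protocols. The values are whole-number counts per gene, 1 file per library, as deposited by the authors; the files hold whole numbers of at least 0 throughout. BWA 0.6.2-r126 and the build mm10 are named in the submitters' processing notes; no source used here gives the counting program, its annotation or whether molecular identifiers were used. A name missing from a file was read as 0, and spike-in rows were left out.

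Counts were scaled by TMM and tested with edgeR 4.0.16 (quasi-likelihood test, filterByExpr with minimum count 10 and minimum total 15, 2-sided, Benjamini-Hochberg, threshold 0.05) in R 4.3.3. The SE is the log2 fold change divided by the root of F. Folds against a group without counts use a floor of 3 counts over the group; floors and exact binomial intervals cover counting error only. Coordinates are GENCODE M21 (GRCm38), matched by symbol (8248 of 8574), and shared 3′ ends are stretches of 40 bases in the last 500 bases of transcripts. Members, gene lists and tests were chosen with earlier results of these data known. Named genes are the 10 largest changes each way among better-expressed genes whose groups do not overlap, up to 5 members with the smallest p per list plus those called against the list's main direction, 13 fixed genes and the 10 with the widest range over media. Passaging was fitted with medium as a term on 16 libraries. Alternatives were RLE and upper quartile scaling, DESeq2 1.42.0, limma-voom (limma 3.58.1), other filters, names in all files, all 32 libraries, thinning to 469839 counts, media with or without the inhibitor, and each library left out. The fits were tested on simulated data. The values of 1 gene that the rule names are not reported here.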

Additional observations from a re-analysis of the deposited data

Results flagged for a closer look

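In 10 named genes, 1 of the 5 organoid libraries stood far from the other 4 on the log2 CPM scale, by the gap to its nearest neighbour over the whole range; with 5 libraries a share above 0.71 is marked, and chance marks about 1 in 20 groups. Of 169 results examined, the library with inhibitor alone was high for Cd74 (share 1) and Krt7 (1), each on 2 counts in all, and for Skint9 (0.949), Alox12e (0.815) and Skint6 (0.795). The Fgf10 library was high for Ctgf (1), a bulge marker, and low for Mvd (0.745), of cholesterol synthesis. The library with forskolin and inhibitor was high for Fcer1g (1), on a single count. The forskolin library was high for Nrarp (0.783), a Notch target, and Ccng1 (0.713), a p53 target.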

How the results depend on the processing

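Of the 182 named results, 150 kept their direction and their side of the threshold under every alternative run. The number of genes called against epidermis was 4194, lay between 3152 (minimum count 30) and 4915 (no filter) under other settings, fell to 2269 of 6160 tested after thinning to equal depth, where fewer genes were tested, and was 3510 to 4168 with 1 library left out. Upper quartile scaling moved the median of all genes to -0.112 and the share of higher calls from 50.9 to 43.8%. Signs changed for genes without a call: Krt10 gave 0.079 without a filter, 0.011 with all 32 libraries and 0.89 with the inhibitor media only, and -1.08 to 0.21 with 1 library left out; Itga6 gave 0.11 without a filter, 0.0019 with names in all files, 0.051 with all 32 libraries, 0.40 without the inhibitor media, and -0.32 to 0.15 with 1 library left out; Mki67 gave -0.28 and H2-Ab1 0.065 without the inhibitor media; and Itgb1, which was called, gave -0.00448 with the inhibitor media only. Calls for passage numbered 1051, with 636 without the medium term, 1663 without a filter, 433 in libraries of 1 gene list and 184 to 788 with 1 unpassaged library left out (396 without the library with inhibitor alone). There Krt6b turned to 0.21 without the medium term, 0.84 in 1 gene list, and -0.31 to 0.22 with 1 library left out. The cause of these changes was not tested. No paired analysis was possible because each unpassaged library is replicate 1 of its own medium and no label ties it to an epidermis replicate. The epidermis libraries were shallower than each organoid library, which limits the precision of genes with few counts there.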
